A study of Mus musculus with 21 samples.

Results

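The transcription factor NRF2, encoded by Nfe2l2, and 9 of its antioxidant target genes (Nqo1, Gclc, Gclm, Hmox1, Txnrd1, Srxn1, Cbr3, Slc7a11 and Gsr) were followed in mouse liver and liver tumours. The members were the non-control array probes that carried one of these gene names, which gave 10 genes of 23726 tested and 12 probes of 39429. All 12 probes were well above background on at least 4 arrays and none was left out. Hmox1 and Gsr had a pair of probes each, and the brighter probe stood for the gene.

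RNA had been hybridised to 21 one-colour microarrays, 1 sample per array, from mice on a C57BL/6J background. The DEN tumours (7 tumours of 5 mice) were hepatocellular carcinomas of mice with intact Trp53, which had received 10 µg of N-nitrosodiethylamine (DEN), a carcinogen activated in hepatocytes, per g of body weight by intraperitoneal injection on day 15. The KO tumours (6 tumours of 5 mice) came from Trp53 knockout mice that were not treated and are labelled as both hepatocellular and cholangiocellular carcinoma. The KO livers (4 mice) were non-tumour livers of untreated mice that also carried the Trp53 knockout, and the WT livers (4 mice) were untreated and wild type. The labels do not state in which cells Trp53 was deleted, nor how old the mice were or of which sex. KO and DEN tumours therefore differed in genotype, carcinogen and tumour type together, and DEN tumours differed from WT livers in both tumour state and carcinogen exposure, so that these cannot be told apart.

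NRF2 is a basic leucine zipper activator that KEAP1, an adaptor of the CUL3 ubiquitin ligase, holds at a low level by marking it for degradation. Oxidants and electrophiles modify KEAP1, NRF2 then accumulates, pairs with a small MAF protein and binds antioxidant response elements in the promoters of genes for glutathione synthesis, thiol reduction and detoxification. In hepatocytes this programme protects against reactive metabolites, and liver cancers can carry it in a permanently active state. Because NRF2 is set mainly by protein turnover, the level of its own transcript need not follow that of its targets.

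The antioxidant response element was looked for in the promoters that RefSeq gives for build GRCm38.p6, from 250 bases before to 50 bases after a start site, as the letters TGACNNNGC or TGAGNNNGC on either strand. The table held 9 promoters of 7 of the 10 members. A match lay in 5 of the 9 promoters, each of another member (Nfe2l2, Gclm, Txnrd1, Srxn1 and Slc7a11). Among all 32851 promoters of the same length, 12.4% held the first form, 17.6% the second and 27.8% either one. Srxn1 held 3 matches, at -158, -45 and 29 from its start site, and the one at -45 shares its first bases with a TPA response element (TGANTCA, in 7.81% of all promoters), which also occurs at -102. Gclm had its match at -134 and Nfe2l2 at -240, while Nqo1 and Cbr3 had none in this window, which says only that these letters are not there. The 250 bases before the start are shown for the member with the most matches, for a member that was lower in KO tumours than in either comparison group, and for NRF2 itself, with the matched letters in capitals; the Srxn1 match at 29 lies after the start and outside the bases shown. A match is a description of the sequence and no binding was measured.
Srxn1, chr2:152105274-152105523, plus strand: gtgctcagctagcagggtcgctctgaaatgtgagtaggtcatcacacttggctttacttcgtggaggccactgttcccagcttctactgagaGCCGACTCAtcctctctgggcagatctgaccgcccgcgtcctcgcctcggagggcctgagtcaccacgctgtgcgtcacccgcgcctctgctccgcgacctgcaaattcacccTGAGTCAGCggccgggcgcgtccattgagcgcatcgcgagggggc
Gclm, chr3:122245307-122245556, plus strand: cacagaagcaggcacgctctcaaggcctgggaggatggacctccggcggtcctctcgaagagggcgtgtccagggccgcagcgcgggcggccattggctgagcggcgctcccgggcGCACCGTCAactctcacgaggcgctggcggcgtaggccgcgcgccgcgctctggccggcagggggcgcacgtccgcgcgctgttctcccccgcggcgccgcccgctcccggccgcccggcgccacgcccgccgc
Nfe2l2, chr2:75704664-75704913, minus strand: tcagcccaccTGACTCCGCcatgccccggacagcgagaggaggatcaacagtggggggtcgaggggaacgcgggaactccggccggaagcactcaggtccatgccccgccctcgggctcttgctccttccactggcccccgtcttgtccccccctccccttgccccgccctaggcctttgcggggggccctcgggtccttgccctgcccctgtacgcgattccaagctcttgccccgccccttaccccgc

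Levels are given in log2 units relative to the 75th percentile of the same array, so that 0 is the brightness below which 75% of probes lie and 1 unit is a doubling. That percentile lay between 476 and 884 intensity units on the DEN tumour, KO liver and WT liver arrays and between 951 and 4258 on the KO tumour arrays, and 51% to 82.4% of probes per array were well above background. Arrays lay on 6 slides scanned on 4 days. Each slide carried arrays of a single group, so slide cannot be told apart from the group in any comparison. Within scan day 1 each group measured that day lay on a single slide, so this holds there too. The slide of the WT livers had a scan day to itself. In comparisons with WT livers the day therefore cannot be told apart from the group either. Trp53 itself was lower in KO livers than in WT livers (a log2 change of -2 ± 0.31, SE, adjusted p = 0.00131), where 1 of 4 KO liver arrays read it above background so that the size is uncertain, and lower in KO than in DEN tumours (-2.06 ± 0.28, adjusted p = 2.16e-05). With quantile scaling these changes shrank to -0.45 and -0.72, and with the slide as a block the call between livers was lost (adjusted p = 0.402). The fit with the slide as a block took each of the 21 arrays singly, so tumours of 1 mouse were not averaged in it. Calls that hold in that fit or within scan day 1 still cannot be told apart from slide. Adjusted p-values are those of limma's moderated test after Benjamini-Hochberg adjustment over all genes, and a gene is called below an adjusted p of 0.05.

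Cell type markers moved with the groups. The mean level of 10 hepatocyte markers was 1.08 to 4.11 in KO tumours. It was 6.05 to 6.23 in DEN tumours, whereas KO livers lay at 6.76 to 6.96 and WT livers at 6.62 to 6.86. All 10 were called lower in KO than in DEN tumours, although each stayed above background on every array. Of 8 biliary markers, 6 were called higher in KO than in DEN tumours, with mean levels of -1.03 to 1.68 against -2.94 to -1.24, and Krt7 was not above background on any KO liver array. All 7 stellate and fibroblast markers were called higher (2.47 to 4.21 in KO tumours, -0.44 to 2.86 in DEN tumours) and all 4 measured of 6 erythroid markers lower (-1.42 to 1.69 against 2.71 to 4.81). Macrophage markers ranged from -1.1 to 3.38 in KO tumours and from -0.5 to 1.56 in DEN tumours. The part of these cells in the results that follow was not tested, and in such bulk samples fewer cells of a type and less RNA per cell cannot be told apart.

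In DEN tumours against WT livers, 4 of the 10 members (Nqo1, Srxn1, Cbr3 and Slc7a11) rose and none fell, where 21.5% of all genes were called (10.5% higher, 10.9% lower). In KO tumours against KO livers, 5 members (Nqo1, Gclc, Gclm, Txnrd1 and Gsr) fell and 2 (Cbr3 and Slc7a11) rose, where 51% of all genes were called (29.5% lower, 21.5% higher). The count of 5 became 2 with quantile scaling and 3 on leaving out any 1 KO liver mouse or KO tumour mouse 1, 3 or 5. Between the tumour types, 8 members were lower in KO tumours and none was higher, where 57.2% of all genes were called (37.4% lower, 19.8% higher). Of all called genes 65.4% were lower there, and 52.9% with quantile scaling. The median change of the 10 members there was -1.52, beside a median of -0.33 over all genes. Between the livers no member was called by limma (also none at an unadjusted p under 0.05), where 8.49% of all genes were (1.83% higher, 6.66% lower). With the slide as a block, 1 member was called in DEN tumours against WT livers (higher), 2 in KO tumours against KO livers (1 in each direction) and 4 between the tumour types (lower). Each group enters more than 1 of these comparisons, so they are not independent of each other.

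**Figure D1:**
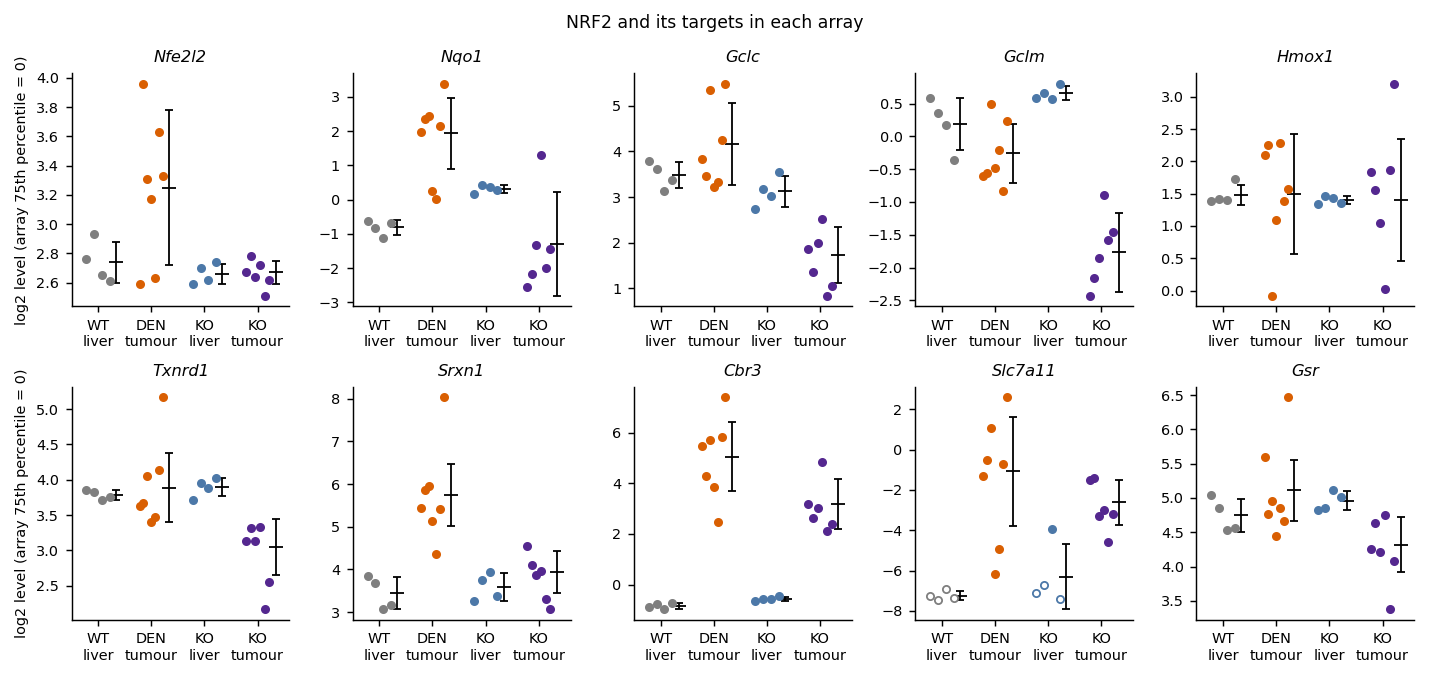
Level of each member (log2, array 75th percentile = 0, one axis per gene) on every array, grouped as WT livers (4), DEN tumours (7), KO livers (4) and KO tumours (6); open points were not well above background, and the bar beside each group is the mean ± SD over mice. Gclc, Gclm and Txnrd1 lie below every liver in all 6 KO tumours, while Srxn1 and Cbr3 lie above every liver in all 7 DEN tumours.

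**Figure D2:**
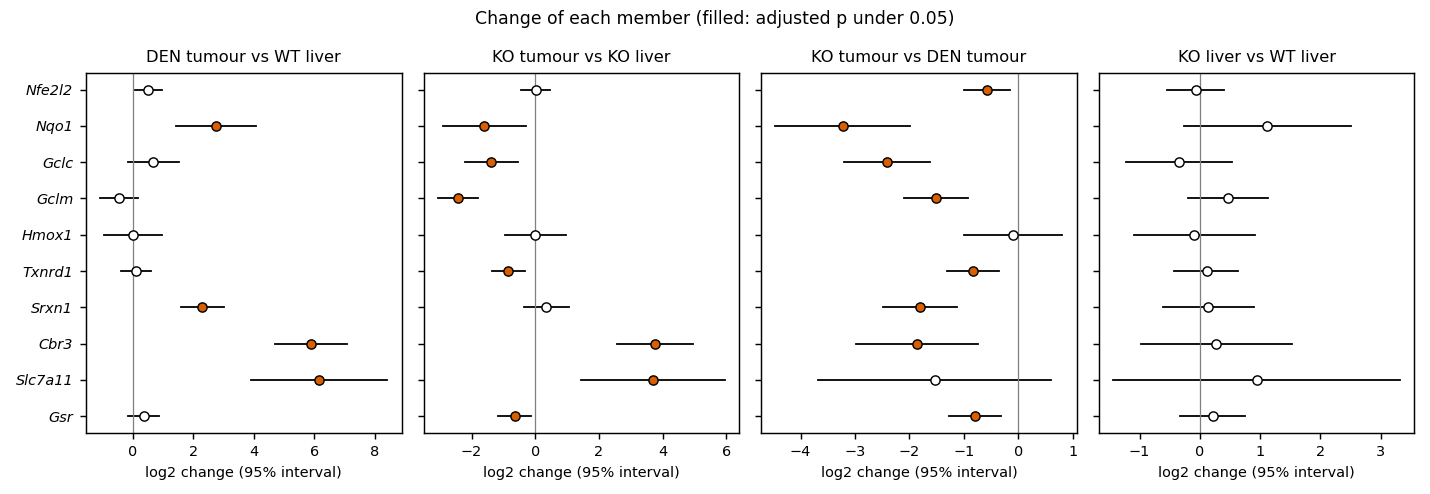
Log2 change of each member in 4 comparisons, with the 95% interval of the limma fit over 18 mice; filled points have an adjusted p under 0.05. Slc7a11 was above background on 1 of 8 liver arrays, so its changes against livers have no exact size. In KO tumours against DEN tumours all 10 points lie below 0 and 8 are filled, while in KO livers against WT livers none is filled.

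Nfe2l2 itself differed little. In the DEN tumours of mice 1 to 5 its level was 2.59, 3.96, 3.31, 2.9 and 3.48, and in the KO tumours of mice 1 to 5 it was 2.67, 2.78, 2.64, 2.72 and 2.57. The KO livers stood at 2.59, 2.7, 2.62 and 2.74 and the WT livers at 2.76, 2.93, 2.65 and 2.61. KO tumours and both livers thus lay in one narrow band, and the spread came from DEN tumours, of which 5 of 7 exceeded every liver. KO tumours were lower than DEN tumours by a log2 change of -0.57 ± 0.2 (adjusted p = 0.0226), of which -0.24 remained beyond the median of all genes. This call was lost with quantile scaling (-0.39, adjusted p = 0.129), with the scan day as a term (-0.2, adjusted p = 0.466), within scan day 1 (-0.16, adjusted p = 0.557), with the slide as a block (adjusted p = 0.111), without the slide of bright KO tumour arrays (adjusted p = 0.0567) and without DEN mouse 2 (-0.4, adjusted p = 0.063) or DEN mouse 5 (-0.52, adjusted p = 0.056). The rise from WT liver to DEN tumour, 0.51 ± 0.21, was not called (adjusted p = 0.102), but it was with quantile scaling (0.71, adjusted p = 0.0273) and without DEN mouse 1 (0.67, adjusted p = 0.0207).

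Among 14 regulators of NRF2, 4 were lower and 3 higher in KO than in DEN tumours, a share near that of all genes (37.4% lower, 19.8% higher), with a median change of -0.07 (2 lower with quantile scaling, 5 higher with the median over a gene's probes; with the slide as a block 2 lower and 1 higher). Keap1, the sensor that targets NRF2 for degradation, was lower by a log2 change of -0.87 ± 0.21 (adjusted p = 0.002), at 1.68 ± 0.52 (SD, n = 5 mice) in KO tumours and 2.55 ± 0.18 (SD, n = 5 mice) in DEN tumours. Sqstm1, whose p62 protein sequesters KEAP1, was lower by -1.05 ± 0.21 (adjusted p = 4.71e-04), and the related factor Nfe2l1 was higher by 1.16 ± 0.22 (adjusted p = 3.05e-04). Bach1, a repressor that competes for the same elements, was lower by -0.73 ± 0.28 (adjusted p = 0.0363), a call lost under 4 of the alternative settings and without DEN mouse 1, 4 or 5 or KO mouse 3 or 5. Keap1 was also lower in KO tumours than in KO livers (-1.09 ± 0.22, adjusted p = 5.69e-04) and stood at 0.03 ± 0.22 in DEN tumours against WT livers. In that last comparison the small MAF gene Maff rose by 1.84 ± 0.39 (adjusted p = 0.00298) and Mafg, another NRF2 partner, was lower by -0.95 ± 0.22 (adjusted p = 0.00587), both lost with the slide as a block (adjusted p = 0.142 and 0.194). Mafg was higher in KO than in DEN tumours (0.52 ± 0.21, adjusted p = 0.043) and lower in KO tumours than in KO livers (-0.55 ± 0.22, adjusted p = 0.049), and both calls were lost under 5 or more alternative settings, the second turning to 0.14 with quantile scaling.

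The catalytic and the modifier subunit of glutamate-cysteine ligase, the rate-limiting enzyme of glutathione synthesis, were both low in KO tumours. Gclc, the catalytic subunit, stood at 3.84, 3.47, 5.34, 3.27 and 4.87 in DEN tumours of mice 1 to 5 and at 1.86, 1.36, 2, 2.53 and 0.94 in KO tumours of mice 1 to 5. Its KO livers read 2.75, 3.17, 3.03 and 3.56, and its WT livers 3.78, 3.61, 3.14 and 3.38. KO tumours did not overlap with any other group, and DEN tumours 3 and 7 were the high ones of their group. KO tumours were lower than DEN tumours by a log2 change of -2.42 ± 0.37 (5.34-fold, adjusted p = 6.2e-05) and lower than KO livers by -1.39 ± 0.4 (2.62-fold, adjusted p = 0.00775), the second not called with the slide as a block (adjusted p = 0.142). DEN tumours against WT livers gave 0.68 ± 0.4 (adjusted p = 0.247).

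The modifier subunit is Gclm. Its 60-base probe spans 2636 bases of the genome (chr3:121962174-121964809, plus strand, mm9), so it bridges an exon junction and reads spliced RNA.
Gclm probe: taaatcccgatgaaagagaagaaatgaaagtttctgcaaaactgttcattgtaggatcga
Its level was -0.61, -0.56, 0.5, -0.35 and -0.29 in DEN tumours of mice 1 to 5 and -2.43, -2.16, -1.85, -0.89 and -1.52 in KO tumours of mice 1 to 5. KO livers stood at 0.59, 0.66, 0.57 and 0.8 and WT livers at 0.59, 0.36, 0.17 and -0.36. No DEN tumour exceeded the livers and 4 of 7 lay below all of them, and the KO tumours were the lowest group with no overlap. The log2 change from KO liver to KO tumour was -2.43 ± 0.3 (5.39-fold, adjusted p = 4.7e-06), and from DEN tumour to KO tumour it was -1.51 ± 0.28 (2.85-fold, adjusted p = 2.78e-04). These calls held with the slide as a block (adjusted p = 8.5e-04 and 0.00643) and within scan day 1 (adjusted p = 9.62e-06 and 2.03e-04). Neither setting can separate slide from group, because each slide carried a single group. In DEN tumours against WT livers the change was -0.45 ± 0.3 (adjusted p = 0.306).

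Slc7a11, the cystine importer (xCT) that feeds glutathione synthesis, went the other way in both tumour types. In DEN tumours of mice 1 to 5 the level was -1.33, -0.53, 1.05, -5.54 and 0.94, and in KO tumours of mice 1 to 5 it was -1.51, -1.39, -3.31, -2.99 and -3.88. KO livers read -7.13, -6.74, -3.92 and -7.43 and WT livers -7.26, -7.45, -6.93 and -7.34. The probe was well above background on all 13 tumour arrays, on 1 of 4 KO liver arrays and on 0 of 4 WT liver arrays. Both tumours of DEN mouse 4 and tumour 5 of the KO mice (-4.57) lay within the range of the livers. Slc7a11 was at least 14.6-fold higher in DEN tumours and at least 5.04-fold higher in KO tumours than in WT livers, where the bound takes for each WT array the higher of its own reading and the dimmest signal among probes well above background. On leaving out 1 tumour mouse at a time, the first bound ranged from 10.1-fold without DEN mouse 3 to 31.6-fold without DEN mouse 4. The second ranged from 4.08-fold without KO mouse 2 to 6.28-fold without KO mouse 5.

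Slc7a11 was called higher in both tumour types, for DEN tumours against WT livers (adjusted p = 6.76e-04; measured means -1.08 and -7.24) and for KO tumours against KO livers (adjusted p = 0.00853; measured means -2.62 and -6.3). As 0 of 4 WT and 1 of 4 KO liver arrays were above background, the fit gives no exact size for either, and the probe passed the filter on low values through the tumours. The latter call was lost with quantile scaling (adjusted p = 0.0743), and both were lost with the slide as a block (adjusted p = 0.189 and 0.26). Between the tumour types the change was -1.53 ± 1.01 (95% interval -3.67 to 0.6, adjusted p = 0.203). Without DEN mouse 4 it became -2.65 (adjusted p = 0.00553), so that 1 mouse decided that call.

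Reduction of glutathione and thioredoxin was read from Gsr and Txnrd1. Txnrd1, the cytosolic thioredoxin reductase, stood at 3.63, 3.67, 4.06, 3.44 and 4.66 in DEN tumours of mice 1 to 5 and at 3.13, 3.32, 3.13, 3.33 and 2.36 in KO tumours of mice 1 to 5. KO livers ranged from 3.72 to 4.02 and WT livers from 3.71 to 3.86. All 6 KO tumours lay below every liver, whereas DEN tumours lay on both sides, 3 above and 4 below. KO tumours were lower than KO livers by a log2 change of -0.85 ± 0.24 (1.8-fold, adjusted p = 0.00743) and lower than DEN tumours by -0.84 ± 0.23 (1.78-fold, adjusted p = 0.00494). The call against KO livers was lost with quantile scaling (-0.25, adjusted p = 0.303), with the scan day as a term, within scan day 1 and with the slide as a block, and that against DEN tumours within scan day 1 (-0.9, adjusted p = 0.08) and with the slide as a block (-1.01, adjusted p = 0.056).

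Gsr, glutathione reductase, stood at 5.6, 4.76, 4.95, 4.66 and 5.57 in DEN tumours of mice 1 to 5 and at 4.25, 4.64, 4.21, 4.75 and 3.73 in KO tumours of mice 1 to 5. KO livers read 4.83, 4.86, 5.12 and 5.02 and WT livers 5.04, 4.86, 4.53 and 4.56. KO tumours lay below the KO livers without overlap but overlapped with DEN tumours and WT livers. Compared with DEN tumours the log2 change was -0.79 ± 0.23 (adjusted p = 0.00747) and compared with KO livers -0.64 ± 0.24 (adjusted p = 0.0354), and with quantile scaling the first became -0.2 (adjusted p = 0.322) and the second turned to 0.23 (adjusted p = 0.294). The first call was also lost with the slide as a block (-0.94, adjusted p = 0.0805). The second call was lost under 7 further alternative settings and on leaving out any 1 KO liver mouse or KO mouse 1, 3 or 5. The dimmer Gsr probe gave -0.42 ± 0.24 (adjusted p = 0.154) against DEN tumours and -0.46 ± 0.26 (adjusted p = 0.145) against KO livers.

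Srxn1, sulfiredoxin, which reactivates overoxidised peroxiredoxins, was higher in DEN tumours than in the other groups by mouse average. DEN tumours of mice 1 to 5 stood at 5.44, 5.87, 5.96, 4.75 and 6.73, and KO tumours of mice 1 to 5 at 4.56, 4.11, 3.87, 3.96 and 3.18. KO livers read 3.27, 3.76, 3.94 and 3.37 and WT livers 3.85, 3.69, 3.08 and 3.17. Every one of the 7 DEN tumours lay above all livers, although DEN tumour 5 (4.36) lay below KO tumour 1 (4.56), while KO tumours spread over and around the liver range, 3 above, 2 within and 1 below. DEN tumours exceeded WT livers by a log2 change of 2.3 ± 0.34 (4.93-fold, adjusted p = 1.94e-04; 0.155 with the slide as a block). KO tumours were lower than DEN tumours by -1.81 ± 0.32 (3.51-fold, adjusted p = 2.03e-04; 0.0782 within scan day 1) and differed from KO livers by 0.35 ± 0.34 (95% interval -0.37 to 1.07, adjusted p = 0.408), which became 0.99 (adjusted p = 0.0128) with quantile scaling.

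Nqo1, the quinone reductase most often used as a readout of NRF2, rose in DEN tumours and fell in KO tumours. It stood at 1.97, 2.35, 2.44, 0.14 and 2.77 in DEN tumours of mice 1 to 5 and at -2.55, -2.16, -1.32, 1.29 and -1.71 in KO tumours of mice 1 to 5. KO livers read 0.17, 0.42, 0.38 and 0.28 and WT livers -0.63, -0.82, -1.12 and -0.67. KO mouse 4 was the exception, above every liver, while the other 5 KO tumours lay below every liver. By mouse average DEN mouse 4 was above the WT livers but below every KO liver. DEN tumours exceeded WT livers by a log2 change of 2.75 ± 0.62 (6.71-fold, adjusted p = 0.00469; 0.244 with the slide as a block). Between the tumour types the change was -3.22 ± 0.58 (9.35-fold, adjusted p = 2.37e-04), which became -3.87 without KO mouse 4 (adjusted p = 2.08e-06) and held within scan day 1 (-3.8, adjusted p = 0.00179) and with the slide as a block (-3.16, adjusted p = 0.0104). Slide and group cannot be told apart in the last 2 settings.

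Against KO livers the Nqo1 change in KO tumours was -1.6 ± 0.62 (3.04-fold, adjusted p = 0.04). It was larger without KO mouse 4 (-2.25, adjusted p = 3.84e-04). It was -2.32 with the scan day as a term (adjusted p = 0.0169), within scan day 1 (adjusted p = 0.0133) and without the slide of bright KO tumour arrays (adjusted p = 8.08e-04). Each of these settings gives the same estimate, that of KO tumours 1, 2 and 3 against the KO livers. KO mouse 4 does not enter that estimate, so the settings are not separate checks. The call at -1.6 was lost on leaving out any 1 KO liver mouse, or KO mouse 1, 2, 3 or 5, with changes of -1.65 to -1.29. It was also lost with quantile scaling (-1.28, adjusted p = 0.0511), centring on the median (-1.48, adjusted p = 0.0564) and the slide as a block (adjusted p = 0.272). The KO and WT livers did not overlap in Nqo1, with KO livers higher, but the change of 1.12 ± 0.65 was not called (adjusted p = 0.328).

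Cbr3, a carbonyl reductase, rose in both tumour types under every alternative that was run. DEN tumours of mice 1 to 5 stood at 5.47, 4.28, 5.71, 3.16 and 6.62 and KO tumours of mice 1 to 5 at 3.16, 2.63, 3.02, 4.83 and 2.25. KO livers ranged from -0.67 to -0.46 and WT livers from -0.97 to -0.72. All 13 tumours lay above all 8 livers, and the tumour types overlapped. The log2 change was 5.89 ± 0.56 in DEN tumours against WT livers (59.2-fold, adjusted p = 3.58e-06) and 3.75 ± 0.56 in KO tumours against KO livers (13.4-fold, adjusted p = 3.66e-05), and both calls held with the slide as a block (adjusted p = 0.0114 and 0.0286). Slide and group cannot be told apart in that fit either. Against DEN tumours the change in KO tumours was -1.87 ± 0.53 (3.65-fold, adjusted p = 0.00676), which was lost with the slide as a block (adjusted p = 0.116), with the scan day as a term (adjusted p = 0.057) and within scan day 1 (adjusted p = 0.0871).

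Hmox1, heme oxygenase, did not separate the groups by its brighter probe. DEN tumours of mice 1 to 5 stood at 2.1, 2.25, -0.08, 1.69 and 1.48 and KO tumours of mice 1 to 5 at 1.83, 1.56, 1.04, 0.03 and 2.53. KO livers ranged from 1.34 to 1.47 and WT livers from 1.38 to 1.73. The means of the 4 groups lay within 1.4 to 1.49, while single tumours spread to both sides of the livers. Between the tumour types the log2 change was -0.09 ± 0.43 (95% interval -0.99 to 0.81, adjusted p = 0.869). The macrophage marker level of the same mice was 1.17, 1.56, -0.5, 1.27 and 0.48 in DEN tumours of mice 1 to 5 and -0.04, 1.01, -0.91, -1.1 and 3.38 in KO tumours of mice 1 to 5. By the brighter probe, the mice with the lowest and the highest Hmox1 were also those with the lowest and the highest macrophage level in each tumour type. The dimmer probe gave the same match in KO tumours but not in DEN tumours. There DEN mouse 3, with the lowest macrophage level (-0.5), had the highest reading of the DEN mice (-0.31). The part of macrophages in Hmox1 was not tested.

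The dimmer Hmox1 probe gave another picture. It lies upstream of the brighter one in the transcript, at base 324 against base 1290 (chr8:77620797-77620856 and chr8:77624207-77624266, plus strand, mm9), and its sequence is shown because its readings disagree.
Hmox1 dimmer probe: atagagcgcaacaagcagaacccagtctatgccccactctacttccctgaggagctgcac
By this probe DEN tumours of mice 1 to 5 stood at -1.21, -0.61, -0.31, -0.87 and -1.11 and KO tumours of mice 1 to 5 at -2.76, -2.82, -3.15, -4.09 and -1.67. KO livers ranged from -2.57 to -2.46 and WT livers from -1.21 to -0.78. By mouse average both groups with the Trp53 knockout were below both groups with intact Trp53. Single tumours overlapped, since KO tumour 6 (-1.13) lay above DEN tumours 1 (-1.21), 5 (-1.41) and 7 (-1.34). The log2 change was -2.08 ± 0.32 in KO against DEN tumours (adjusted p = 5.52e-05) and -1.5 ± 0.35 in KO against WT livers (adjusted p = 0.0171), in the fit of every probe on its own, where 55.5% and 8.12% of all probes were called (36.4% and 6.47% lower). WT livers had a slide and a scan day of their own, so the second change cannot be told apart from these. With the median of both probes standing for the gene, Hmox1 was called lower in KO than in DEN tumours (-1.08, adjusted p = 0.009). Which probe reads the transcript better was not tested.

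**Figure D3:**
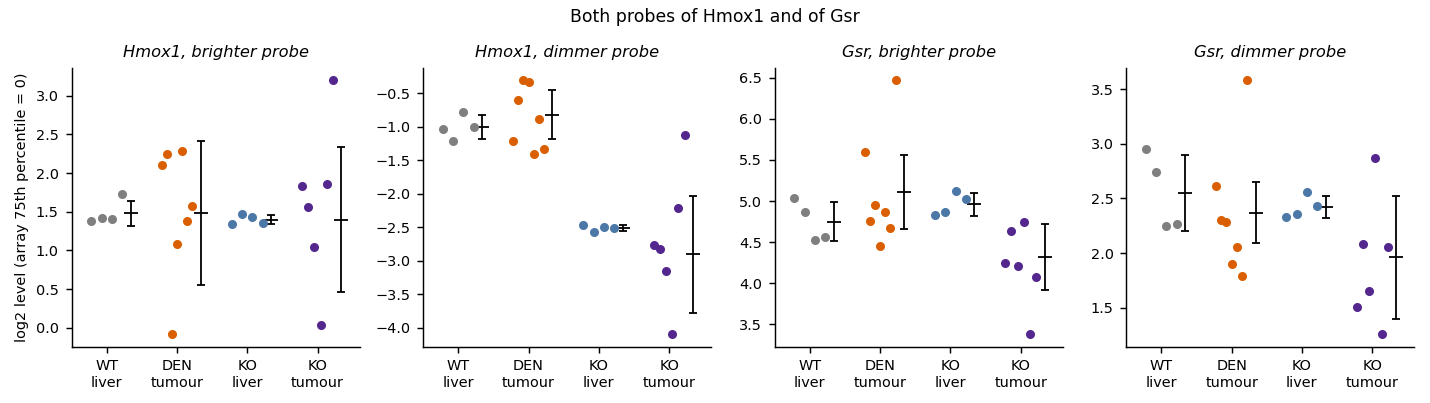
Level (log2, array 75th percentile = 0) of both probes of Hmox1 and of Gsr on every array, with the mean ± SD over mice beside each group. The dimmer Hmox1 probe puts KO livers (-2.57 to -2.46) below WT livers (-1.21 to -0.78), while by the brighter probe the livers overlap.

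The change from liver to tumour in the KO groups differed from that in the WT and DEN groups for 6 members. Over all genes 30.9% were called there (18.2% lower, 12.6% higher). This difference is the KO tumour minus KO liver change less the DEN tumour minus WT liver change. It was -4.35 ± 0.88 for Nqo1 (adjusted p = 0.00186), -2.07 ± 0.56 for Gclc (adjusted p = 0.0113), -1.98 ± 0.42 for Gclm (adjusted p = 0.00253) and -1.95 ± 0.48 for Srxn1 (adjusted p = 0.00668). For Txnrd1 it was -0.94 ± 0.34 (adjusted p = 0.0444) and for Gsr -1 ± 0.34 (adjusted p = 0.036), both lost with quantile scaling (-0.47 and -0.29) and on leaving out most single mice. Cbr3 just missed the threshold (-2.14 ± 0.8, adjusted p = 0.051), and passed it without DEN mouse 2 or 4 (adjusted p = 0.0401 and 0.00941) or KO mouse 4 (adjusted p = 0.011) and under 2 alternative settings (adjusted p = 0.0431 and 0.0209). Slc7a11, with livers near background, passed it only without DEN mouse 4 (adjusted p = 0.0179) among the mice left out singly. With the slide as a block none of the 6 was called (adjusted p from 0.0988 to 0.37). The comparison takes in the WT livers, so slide and scan day cannot be told apart from it. Genotype, carcinogen and tumour type cannot be told apart in it either.

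Single tumours showed how unevenly the programme was distributed. DEN tumour 7 held the highest level of its group for 7 members (Nqo1, Gclc, Txnrd1, Srxn1, Cbr3, Slc7a11 and Gsr), with 3.38 for Nqo1, 8.04 for Srxn1, 7.4 for Cbr3 and 2.6 for Slc7a11, and 8 of the 10 members lay above every liver. Its neighbour from the same mouse, tumour 6, read 2.15, 5.42, 5.83 and -0.72 for those 4 genes. The pair differed by a median of 1.23 over the 10 members and by up to 3.32, for Slc7a11, whereas Nfe2l2 differed by 0.3. DEN tumours 4 and 5, both from mouse 4, were the low ones, with 3 members each above every liver, Nqo1 at 0.26 and 0.03 and Slc7a11 at -6.16 and -4.92. They differed from each other by a median of 0.48. Tumours of each of these pairs were scanned on different slides and days, so a difference between tumours of 1 mouse cannot be told apart from one between slides or days. Without DEN tumour 7, a setting chosen after its values were seen, the counts of called members were as before in all 5 comparisons, although Gsr lost (adjusted p = 0.0707) and Cbr3 gained (adjusted p = 0.0492) its call in the difference of tumour effects.

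Among KO tumours, tumour 4 held the highest level for 6 members (Nqo1, Gclc, Gclm, Txnrd1, Cbr3 and Gsr) and the lowest for Hmox1. It also had the highest hepatocyte marker level (4.11) and the lowest biliary one (-1.03) of the KO mice. KO mouse 5, with the second highest hepatocyte level (3.83), held the lowest Gclc, Txnrd1, Srxn1, Cbr3, Slc7a11 and Gsr of the KO mice and had the highest macrophage level (3.38). KO mouse 1, with the lowest hepatocyte level (1.08), had the lowest Nqo1 and Gclm but the highest Srxn1. The members therefore did not all follow the hepatocyte level across KO mice, and its part in any single member was not tested. Tumours 5 and 6 of KO mouse 5, on the same slide, differed by a median of 0.33. KO tumours 4, 5 and 6 made up the slide of bright KO tumour arrays. Their 75th percentiles were 2045, 4258 and 3894 intensity units, against 997, 1357 and 951 for KO tumours 1, 2 and 3. Levels are relative to that percentile, and its part in the low readings of KO mouse 5 was not tested.

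**Figure D4:**
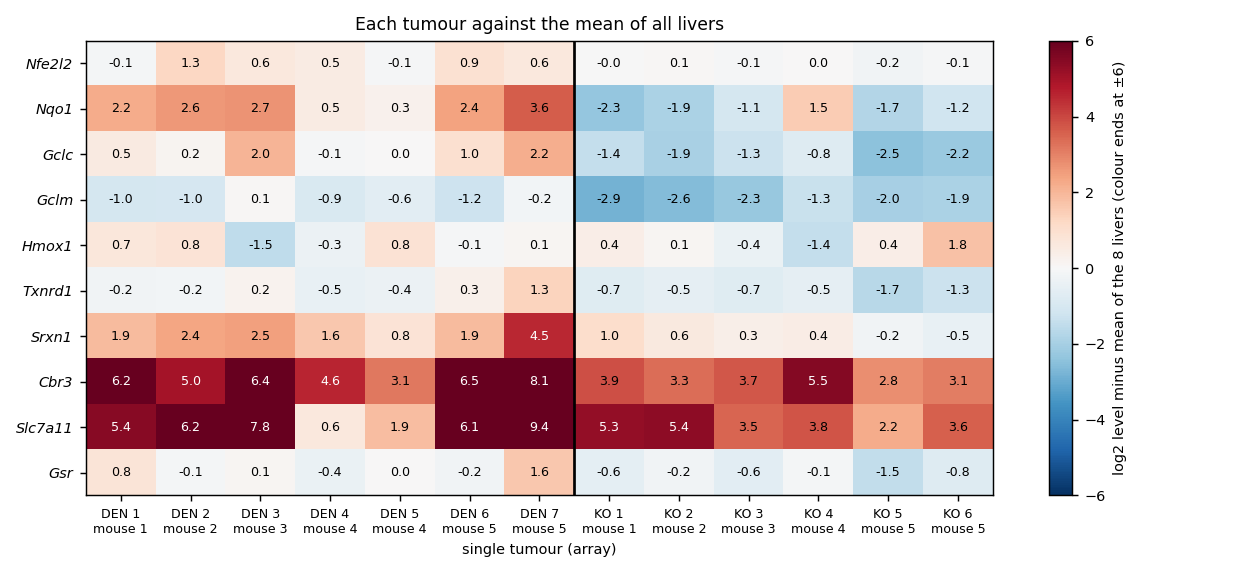
Log2 level of each member in each of the 13 tumours minus its mean over the 8 livers (red above, blue below, values printed in the cells; the colour scale ends at 6 units either way), with the mouse under each tumour. Slc7a11 livers were mostly not above background, so its differences rest on liver readings near background; Cbr3 is red in every tumour, and the row of Gclm is blue in every KO tumour.

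The wider detoxification programme moved like most of the members between the tumour types. Of 30 other NRF2 targets 28 were measured, and 20 of them were lower and 2 higher in KO than in DEN tumours, beside 37.4% lower and 19.8% higher over all genes, with a median change of -1.84 (all genes -0.33). Among them Cbr1, a carbonyl reductase, was lower by a log2 change of -3.3 ± 0.38 (adjusted p = 5.11e-06) and the glutathione transferases Gstm4 and Gstm1, whose near-identical sequences may share signal, by -3.28 ± 0.36 (adjusted p = 3.45e-06) and -2.85 ± 0.38 (adjusted p = 1.63e-05). The 2 that were higher were Abcc1, a glutathione-conjugate exporter (2.79 ± 0.38, adjusted p = 2.34e-05), and the aldo-keto reductase Akr1b8 (2.08 ± 0.36, adjusted p = 1.5e-04). Against KO livers 17 of the 28 were lower and 4 higher in KO tumours, beside 29.5% lower and 21.5% higher over all genes. Abcc1 was among the 4 (3.82 ± 0.41, adjusted p = 1.33e-06). Against WT livers 5 were higher and 4 lower in DEN tumours, beside 10.5% higher and 10.9% lower over all genes. The counts were 2 and 0 with the slide as a block, and 9 were higher without the slide of bright KO tumour arrays. Risers included Akr1b3 at 2.3 ± 0.25 (adjusted p = 9.53e-06) and the heme transporter Slc48a1 at 2.41 ± 0.32 (adjusted p = 7.69e-05). Among those that fell were Mgst1 (-1.62 ± 0.34, adjusted p = 0.0027), Gsta3 (-1.29 ± 0.39, adjusted p = 0.0277) and Aox1 (-1.26 ± 0.33, adjusted p = 0.0111). Many of these other NRF2 targets are also abundant hepatocyte enzymes, and 10 of 10 hepatocyte markers were lower in the same KO tumours. The part of hepatocyte content in these changes was not tested.

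Enzymes of the glutathione and thioredoxin systems were more mixed. Of 30, 13 were lower and 4 higher in KO than in DEN tumours (8 lower with quantile scaling), beside 37.4% lower and 19.8% higher over all genes, with a median change of -0.27, and with the slide as a block 1 was higher. Prdx4, a peroxiredoxin of the secretory pathway, was lower by -1.73 ± 0.29 (adjusted p = 1.23e-04). Gpx2, the gastrointestinal glutathione peroxidase, was higher by 3.54 ± 0.59 (adjusted p = 1.19e-04), lost with the slide as a block (adjusted p = 0.0618), with the scan day as a term (adjusted p = 0.0849) and within scan day 1 (adjusted p = 0.0902), and it rose by 6.69 ± 0.63 against KO livers (adjusted p = 3.93e-07). In KO tumours against KO livers 16 were lower and 5 higher (10 with quantile scaling), beside 29.5% lower and 21.5% higher over all genes. In DEN tumours against WT livers 7 were lower and 5 higher (0 and 3 with the slide as a block). Over all genes 10.9% were lower and 10.5% higher there. G6pdx, which supplies NADPH to these reductases through the pentose phosphate pathway, rose in both tumour types, by 2.61 ± 0.29 in DEN tumours against WT livers (adjusted p = 1.44e-05) and by 1.98 ± 0.29 in KO tumours against KO livers (adjusted p = 3.12e-05).

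Slc7a11 is also a target of ATF4, the factor of the amino acid response, and 15 genes of that response were read beside it. In KO tumours against KO livers 7 rose and 2 fell, with a median change of 0.89 (all genes 21.5% higher and 29.5% lower). In DEN tumours against WT livers 5 rose and none fell, with a median of 0.64 (all genes 10.5% higher and 10.9% lower). With the slide as a block 1 rose in DEN tumours against WT livers. Psat1, an enzyme of serine synthesis, rose by 6.12 ± 0.52 (adjusted p = 1.8e-07) and 5.22 ± 0.52 (adjusted p = 5.41e-06) in these comparisons. Between the tumour types 4 were higher (7 with quantile scaling, 2 with the slide as a block) and 4 lower, near the share of all genes (57.2% in either direction). Nupr1, a stress-induced chromatin protein, was higher in KO tumours by 3.55 ± 0.36 (adjusted p = 1.63e-06), and Cth, which makes cysteine from cystathionine, was lower by -3.98 ± 0.71 (adjusted p = 2.13e-04).

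The genes whose profile over the 18 mice lay nearest to that of a member are given as a description, over 17904 named genes, by the root mean square difference of centred log2 levels. For Nqo1 they were Cbr1 (0.64), Apoc2 (0.68) and 6720473M11Rik (0.69), where the profile of Nqo1 itself had an SD of 1.56. For Hmox1 they were Ackr2 (0.27), B430306N03Rik (0.39) and Mertk (0.42) against an SD of 0.63, for Slc7a11 Scel (1.24), Cbr3 (1.28) and Pard6g (1.3) against 2.96, and for Nfe2l2 Polr1d, Gm12751 and Zc3h15 (0.23 each) against 0.36. Pairs of members were also compared within a mouse, as differences of 2 log2 levels, in 16 exact two-sided permutation tests. None was below 0.05 after Benjamini-Hochberg adjustment, the lowest adjusted p being 0.0635. Gclm less Gclc was lower by -1.04 in KO tumours than in KO livers and by -1.13 in DEN tumours than in WT livers (exact permutation p = 0.0317 each, adjusted p = 0.0635, smallest possible 0.00794). It also differed between the livers, by 0.82 in KO against WT livers (exact permutation p = 0.0286, the smallest possible, adjusted p = 0.0635). Other pairs reached the same adjusted p.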

How the data were processed

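Transcript levels were read on 21 one-colour Agilent arrays, each labelled with Cy3 from 0.5 µg of RNA. The authors' scanner files, made with Agilent Feature Extraction 10.7.3.1 per the submitters' processing notes, hold a processed intensity per spot, already corrected for background, and the deposited series table holds values that, by comparison with the scanner values, are log2 differences from each probe's centre over arrays (lowest correlation with the array's own 0.9997, column medians -0.568 to 0.296). Whether that centre was a mean or a median is unknown.

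Here log2 intensities were taken without outlier spots (70 to 397 per array), averaged per probe and set relative to the 75th percentile of each array. Probes well above background on at least 4 arrays were kept (30425), and the probe with the highest mean stood for a gene. Tumours of 1 mouse, read from the titles, were averaged, giving 18 mice. A model with 4 group means was fitted with limma 3.58.1 (R 4.3.3) and Benjamini-Hochberg adjustment, threshold 0.05; the fit was tested on simulated data. Figures were drawn with matplotlib 3.10.9. P-values measure the spread between these mice. The number of arrays limits the precision.

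The members and lists were chosen with earlier results of these data known. Named genes were the members, up to 3 risen and 3 fallen genes of each list with the smallest adjusted p (up to 2 and 2 between livers), Keap1, Bach1, Mafg and Trp53, and the nearest 3 profiles of 4 members; only some of those that qualified are named. Alternatives covered scaling, filter, choice of probe, blocks for mouse, slide and scan day, and leaving out each mouse. Fits with a block used single arrays, and the one for slide had no term for the mouse. Names came from RefSeq tables; probe coordinates are in mm9 per the file headers, promoters in GRCm38.p6.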

Additional observations from a re-analysis of the deposited data

Results flagged for a closer look

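Over 40 groups of mice tested for an extreme member, 3 had a mouse far from the others, and chance alone marks about 1 group in 20. Gclm was high in DEN mouse 3, at 0.5 where the other mice lay between -0.61 and -0.29. Hmox1 was high in WT liver mouse 4, at 1.73 against 1.38 to 1.42. Txnrd1 was low in KO tumour mouse 5, at 2.36 against 3.13 to 3.33. The tumours of that mouse had the highest macrophage marker level (3.38) of the KO mice. Their arrays also had the highest 75th percentiles of all arrays (4258 and 3894 intensity units). The part of either in the Txnrd1 level was not tested.

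For 6 members the change from KO liver to KO tumour differed from that between WT liver and DEN tumour in limma's direct test. These members were Nqo1 (-4.35), Gclc (-2.07), Gclm (-1.98), Srxn1 (-1.95), Gsr (-1) and Txnrd1 (-0.94). Over all genes 30.9% were called in that test (18.2% lower), and with the slide as a block none of the 6 was.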

How the results depend on the processing

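Of 540 changes of single members under alternatives other than leaving out mice, 484 kept their side of the threshold and, where called, their direction, 49 lost a call, 6 gained one and 1 changed sign with its call. Where the cause of a change is not given below, it was not tested. With normexp background correction and quantile scaling, which moves the median of all genes in KO against DEN tumours from -0.33 to -0.04, the Gsr change in KO tumours against KO livers turned to 0.23, Mafg there turned to 0.14, and 2 members were called lower in place of 5; called genes were then 52.9% lower in KO against DEN tumours (65.4% before) 65.5% lower between livers (78.5%) and 48.4% lower for the difference of tumour effects (59%). Centring on the median of probes above background, the scan day as a term and scan day 1 alone each left 3 lower members there, and scan day 1 alone left 4 lower members of 8 in KO against DEN tumours. Against KO livers, the scan day as a term and scan day 1 alone both compare KO tumours 1, 2 and 3. So does leaving out the slide of bright KO tumour arrays.

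With the slide as a random block (consensus correlation 0.382), counts of genes fell to 6685 of 12098 in KO tumours against KO livers, 422 of 5091 in DEN tumours against WT livers (29.4% of them lower), 11 of 2014 between livers (36.4% lower) and 799 of 7322 for the difference of tumour effects. That fit took every array singly, without averaging tumours of 1 mouse and without a term for the mouse. Called members became 1 higher and 1 lower in KO tumours against KO livers, 1 higher in DEN tumours against WT livers, 4 lower in KO against DEN tumours and 0 for the difference. With every tumour array and the mouse as a block 1160 genes were called between livers, and without the slide of bright KO tumour arrays 3220. Scan day could not be fitted with WT livers, which were alone on their day.

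Leaving out 1 mouse at a time, genes called ranged from 10708 to 12822 in KO tumours against KO livers, 3634 to 5821 in DEN tumours against WT livers, 12503 to 14126 between tumours, 659 to 2389 between livers (659 and 903 without WT liver mouse 3 or 4, 865 to 1102 without a KO liver mouse) and 5999 to 8590 for the difference. Lower members ranged from 3 to 5 in KO tumours against KO livers (3 without any 1 KO liver mouse or KO tumour mouse 1, 3 or 5), 7 to 9 between tumours and 4 to 8 for the difference, and higher members from 4 to 5 in DEN tumours against WT livers. No paired analysis was possible because tumours and livers carry no shared numbers that tie mice across groups. Slc7a11 in livers is limited by background.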
